A study of Mus musculus with 4 samples.

Results

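The J-domain cochaperones described here are the 9 class A and class B genes Dnaja1, Dnaja2, Dnaja3, Dnaja4, Dnajb1, Dnajb2, Dnajb4, Dnajb5 and Dnajb6. They were chosen by symbol, without regard to their values, from the 55573 gene IDs counted in each library, and all 9 were matched and passed the filter on low counts. RNA-seq was done on quadriceps, the large thigh muscle, of mice aged 7 weeks. Of the 4 libraries, 2 were from wild-type C57BL/6J mice (WT) and 2 from the VDR knockout strain B6.129S4-Vdrtm1Mbd/J (vdr-/-, called the knockout below), in which the vitamin D receptor is disrupted in the whole body and not in muscle alone. Both groups were weaned on day 21 and kept on regular chow and water without restriction. The labels do not say whether the libraries of a group came from separate animals, so p-values rest on the spread between libraries that may be technical repeats.

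J-domain proteins bring unfolded clients to HSP70 chaperones and, through the conserved J domain, speed the hydrolysis of ATP that locks HSP70 on the client. Class A members carry a glycine and phenylalanine-rich stretch and a zinc finger beside the J domain, and class B members lack the zinc finger. In striated muscle this machinery is known for holding sarcomere proteins in shape, and mutations in the human counterpart of Dnajb6 cause a limb-girdle muscular dystrophy. Most of the 9 proteins act in the cytosol and nucleus, but Dnaja3 is known as a protein of the mitochondrial matrix, where it works with the HSP70 gene product Hspa9.

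Total counts ran from 10.79 M to 21.34 M per library, and the members had between 145 and 1641 counts in a library. Vdr itself was near 0 in all libraries (5 and 0 counts in WT, 5 and 1 in the knockout), too few to check the genotype. None of the 14 muscle fibre markers was called by edgeR (2 had an unadjusted p below 0.05, as did 14.0% of all tested genes, and DESeq2 called Ttn, titin, lower). Their summed level was 104400 and 96390 CPM (counts scaled to a common library total, with the trimmed mean of M values, TMM) in WT, against 90100 and 91400 CPM in the knockout. Sex-linked RNAs also divided the libraries by group. Xist stood at 183 and 217 CPM in WT and at 0 and 0.256 CPM in the knockout, and 4 Y-linked genes summed to 9.0 and 0.078 CPM in WT, against 141 and 118 CPM in the knockout. Genotype and sex cannot be told apart in any difference below. Fat-cell markers also differed: 10 of 14 were called higher in the knockout and none lower, no marker of the list was at 0 in any library, and their summed level was 1338 and 1585 CPM in WT against 5055 and 4620 CPM in the knockout. Of 5 tested red blood cell markers, 3 were called higher, and 1.91% of all tested genes were called higher. The part of these cells in the differences below was not tested, and in whole muscle fewer cells of a type cannot be told apart from less RNA per cell.

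Heat shock factor 1, the transcription factor that switches on chaperone genes under protein stress, binds arrays of GAA units in alternating orientation, and the promoters of the members are shown for these letters. RefSeq promoter windows on GRCm38.p6, each with 250 bases before and 50 after a transcription start, were found for all 9 genes, 18 windows in total. A 2-unit element (GAANNTTC or TTCNNGAA, each its own reverse complement) was present in at least 1 window of 4 members, Dnaja1, Dnaja4, Dnajb4 and Dnajb6. By window, it was present in 5 of the members' 18, of which the 2 of Dnajb6 overlap and share their match, and in 15.1% of all 32851 windows. By gene, it was present in 17.0% of 27025 genes, which on average have fewer windows each than the members. A 3-unit element (GAANNTTCNNGAA or its reverse complement TTCNNGAANNTTC), which contains 2-unit matches by construction, was present in Dnajb6 alone among the 9 and in 0.662% of all genes. The vitamin D response element in its direct-repeat form, searched on both strands, was present in 0 of the 9 and in 0.044% of all genes. A match describes letters and not a bound site, and no match says only that these exact letters are not in the window. The stretches that hold the matches follow 5′ to 3′ on the strand of the gene, with the matching letters in capitals.
Dnaja1, plus strand, chr4:40722333-40722362: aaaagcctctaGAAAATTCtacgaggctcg
Dnaja4, plus strand, chr9:54699458-54699487: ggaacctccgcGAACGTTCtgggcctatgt
Dnaja4, plus strand, chr9:54699496-54699525: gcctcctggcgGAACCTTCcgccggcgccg
Dnajb4, minus strand, chr3:152193846-152193945: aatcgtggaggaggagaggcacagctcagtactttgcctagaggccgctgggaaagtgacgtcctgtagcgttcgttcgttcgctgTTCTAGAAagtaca
Dnajb6, plus strand, chr5:29735843-29735872: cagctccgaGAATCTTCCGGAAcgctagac

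In Dnaja1 the match lies at positions -124 to -117, counted from the first of its listed starts with -1 as the base before it, in sequence that GENCODE places in exons of Dnaja1 and of the noncoding gene Gm6297 on the opposite strand. The 2 matches of Dnaja4 lie at -90 to -83 and -52 to -45 from its second listed start. The Dnajb4 match lies at -14 to -7 from a start inside the gene, outside annotated exons. The 3-unit match of Dnajb6 lies at -46 to -34 from the first of its listed starts, within exons of Dnajb6 and of Gm5129.

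Knockout muscle had less RNA of the class A genes Dnaja1 and Dnaja4 than WT muscle. Dnaja1 stood at 42.4% of its WT level and Dnaja4 at 61.8%, and these 2 were the members called by edgeR. DESeq2 called Dnaja1 and not Dnaja4 (adjusted p = 0.0665). The class B gene Dnajb1 stood between them at 54.6%, without a call by edgeR or DESeq2. A member is called where the p of edgeR's quasi-likelihood test, after Benjamini-Hochberg adjustment over all 13076 tested genes, is below 0.05. Thus 2 of the 9 were called lower, where 0.558% of all tested genes were. None of the 9 was called higher by edgeR or by DESeq2, where edgeR called 1.91% of all tested genes higher. At an unadjusted p below 0.05 by edgeR, 4 of the 9 were lower and 0 higher. Of all tested genes, 14.0% had such a p in either direction. Log2 fold changes, given below as knockout over WT ± SE, were negative for 7 of the 9, with a median of -0.34 beside -0.00 over all tested genes. Both knockout libraries lay below both WT libraries for 5 members and above them for 2, which held for 21.7% and 23% of all tested genes. Group levels are means ± SD of CPM after TMM scaling (n = 2 per group).

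**Figure D1:**
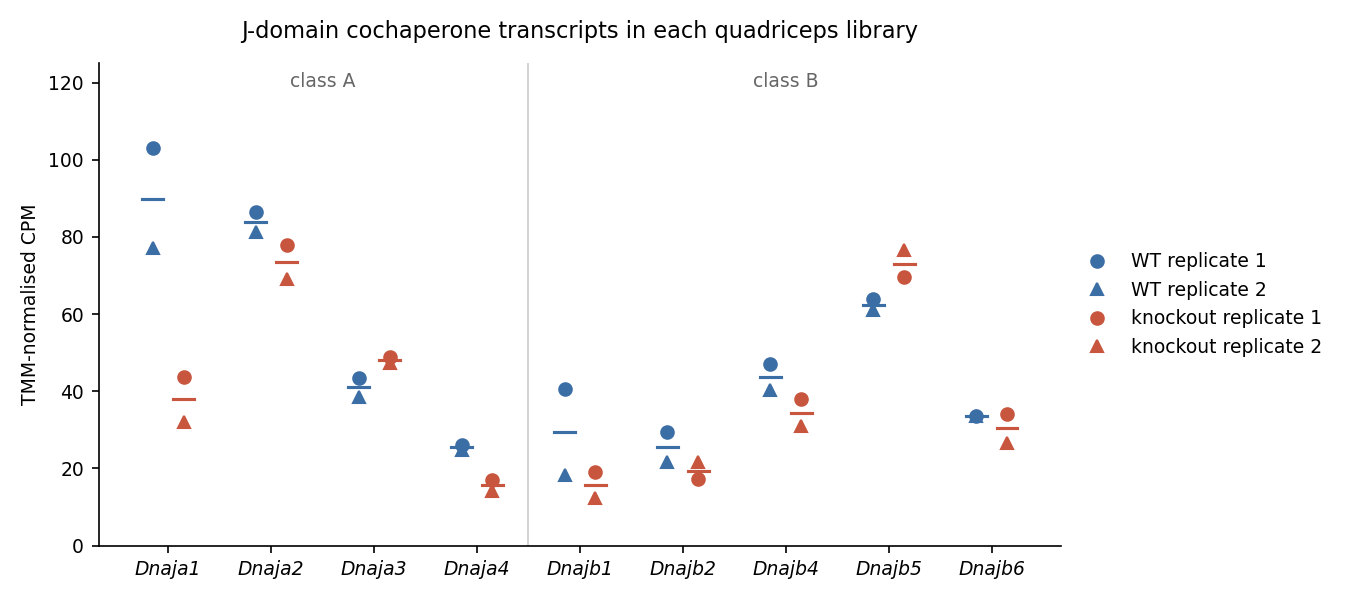
TMM-normalised CPM of the 9 cochaperones (vertical axis, linear from 0) in each of the 4 libraries; points are libraries, short lines are group means, and a vertical line parts class A from class B. The knockout libraries of Dnaja1 (43.8 and 32.0 CPM) lie below both WT libraries (103 and 77.1 CPM), and the WT libraries of Dnajb1 lie apart (40.5 and 18.4 CPM).

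Among class A, Dnaja1 (ENSMUSG00000028410, chromosome 4, 40722150 to 40737149, GRCm38) encodes a farnesylated partner of the constitutive HSP70 that takes part in folding and in protein import into mitochondria. It stood at 103 and 77.1 CPM in WT replicates 1 and 2 and at 43.8 and 32.0 CPM in knockout replicates 1 and 2, from 1083, 988, 921 and 375 counts. Both knockout libraries were low, and the gap between the groups exceeded the gap within either. The group levels were 89.9 ± 18.1 CPM for WT and 37.9 ± 8.35 CPM for the knockout, and Dnaja1 fell by 1.24 on the log2 scale (SE 0.18, 95% interval -1.65 to -0.83, edgeR adjusted p = 0.00708). Its call held whichever library was left out, with log2 fold changes from -1.49 to -1.02, and by DESeq2 (adjusted p = 1.05e-07). Smu1 on the opposite strand overlaps 7.05% of the Dnaja1 exon bases and had a log2 fold change of 0.01 ± 0.13.

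Dnaja4 (ENSMUSG00000032285, chromosome 9, 54698873 to 54716315) encodes a class A cochaperone that is abundant in heart and skeletal muscle. It had 26.1 and 24.9 CPM in WT, against 17.1 and 14.2 CPM in the knockout. The groups did not overlap, and the WT libraries were close together. The levels were 25.5 ± 0.827 and 15.6 ± 2.09 CPM, and the gene fell by 0.70 on the log2 scale (SE 0.15, 95% interval -1.02 to -0.37, edgeR adjusted p = 0.0298). The call was lost without WT replicate 1 (-0.66, adjusted p = 0.0974), WT replicate 2 (-0.73, adjusted p = 0.0618) or knockout replicate 2 (-0.57, adjusted p = 0.107), and with DESeq2 (-0.70, adjusted p = 0.0665). Of the Dnaja4 exon bases, 44.05% lie under exons of Wdr61 on the opposite strand, which ran the other way without a call (0.25 ± 0.19). The counts carried strand: 121 of 463 genes wholly covered by opposite-strand exons had a count, against 1 of 609 covered on their own strand.

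Dnaja2, the close paralogue of Dnaja1 that serves HSP70 in refolding, had 86.5 and 81.2 CPM in WT, against 78.0 and 69.1 CPM in the knockout. Its knockout libraries were the lower ones, by less than for Dnaja1, and the difference was not called (-0.19 ± 0.13, 95% interval -0.47 to 0.09, adjusted p = 0.571). Scaling cancels in a ratio of 2 genes within a library. The ratio of Dnaja1 to Dnaja2, each per kilobase of its principal transcript, was 0.616 and 0.493 in WT, against 0.291 and 0.240 in the knockout. The same ratio for Dnaja4 over Dnaja2 was 0.293 and 0.298 in WT, against 0.213 and 0.199 in the knockout. Both ratios were lower in both knockout libraries than in either WT library.

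Dnaja3, the mitochondrial class A member, had 43.4 and 38.6 CPM in WT, against 48.8 and 47.4 CPM in the knockout. The knockout libraries were the higher ones without a call (0.23 ± 0.12, 95% interval -0.04 to 0.51, adjusted p = 0.464). Its interval holds no fall of the size measured for Dnaja1 or Dnaja4. Vasn on the same strand overlaps 4.09% of its exon bases and had a log2 fold change of 0.43 ± 0.20.

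Among class B, none of the 5 members was called by edgeR or by DESeq2, although Dnajb2 and Dnajb4 had an unadjusted p below 0.05, as did 14.0% of all tested genes. Dnajb1 (ENSMUSG00000005483, chromosome 8, 83608193 to 83612653), the classical heat-inducible HSP40, had 40.5 and 18.4 CPM in WT, against 19.2 and 12.4 CPM in the knockout. WT replicate 1 stood alone at the top, and knockout replicate 1 lay above WT replicate 2, so the groups overlapped. The log2 fold change was -0.87 ± 0.55 (95% interval -2.73 to 0.98, adjusted p = 0.640). Leaving out WT replicate 1 gave -0.20 (adjusted p = 0.906), and leaving out WT replicate 2 gave -1.34 with a call (adjusted p = 0.00618), so the value rests on which WT library is used. The WT libraries were 1.13 apart in log2 CPM for Dnajb1, and of 6289 tested genes with a mean of at least 10 CPM only 43 (0.684%) had WT libraries further apart.

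**Figure D2:**
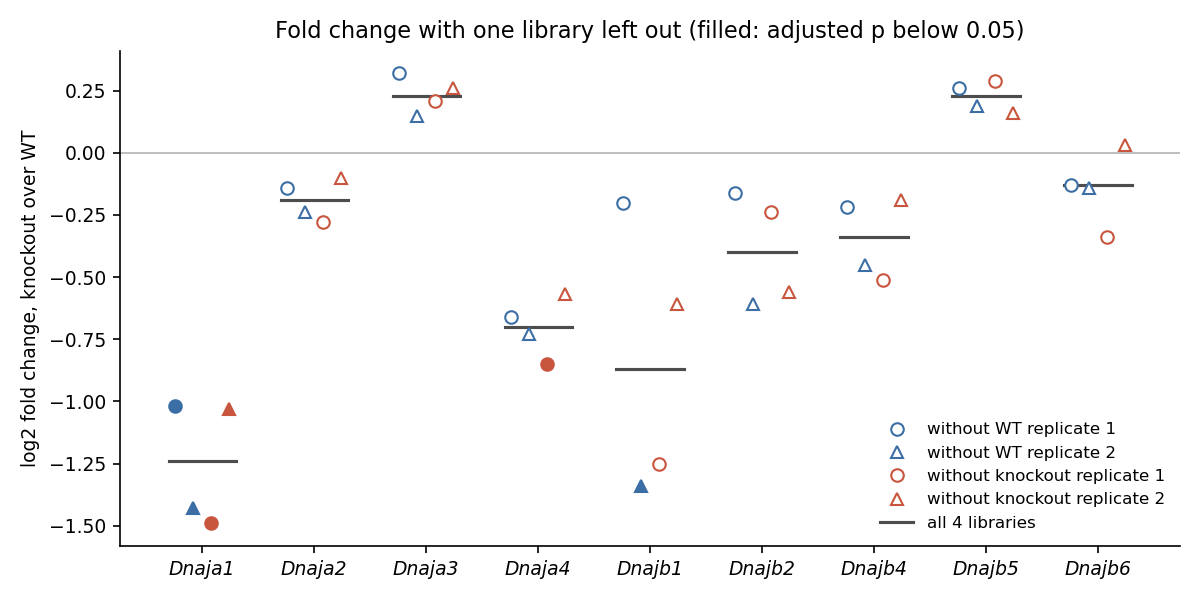
Log2 fold change, knockout over WT (vertical axis), of each cochaperone with all 4 libraries (grey lines) and with each library left out (points, filled where the edgeR adjusted p is below 0.05). Dnaja1 stays filled in all 4 runs (-1.49 to -1.02), and Dnajb1 runs from -1.34 to -0.20 with the choice of WT library.

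Dnajb4, a class B cochaperone of heart and skeletal muscle, had 47.2 and 40.3 CPM in WT, against 38.1 and 30.9 CPM in the knockout. Both knockout libraries were the lower ones, with the nearest pair of the groups closer than the libraries within either group, and the difference was not called (-0.34 ± 0.14, 95% interval -0.65 to -0.02, adjusted p = 0.314). Dnajb2, a cochaperone with ubiquitin-interacting motifs that passes clients to the proteasome, had 29.4 and 21.6 CPM in WT, against 17.3 and 21.6 CPM in the knockout. The groups met at WT replicate 2 and knockout replicate 2, which are equal at the precision printed, and the difference was not called (-0.40 ± 0.18, 95% interval -0.78 to -0.01, adjusted p = 0.336).

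Dnajb6, which suppresses aggregation and acts at the Z-disc with Bag3, had 33.5 CPM in both WT libraries and 34.2 and 26.6 CPM in the knockout. Knockout replicate 1 was level with WT and knockout replicate 2 was lower. The log2 fold change was -0.13 ± 0.15 (95% interval -0.45 to 0.19, adjusted p = 0.768), and without knockout replicate 2 it was 0.03. Counts are per gene, so the long nuclear and short cytosolic forms of Dnajb6 could not be told apart. Dnajb5, a muscle-expressed cochaperone that takes part in the control of class II histone deacetylases, had 63.8 and 61.1 CPM in WT, against 69.5 and 76.6 CPM in the knockout. Both knockout libraries were the higher ones without a call (0.23 ± 0.12, 95% interval -0.04 to 0.50, adjusted p = 0.470).

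**Figure D3:**
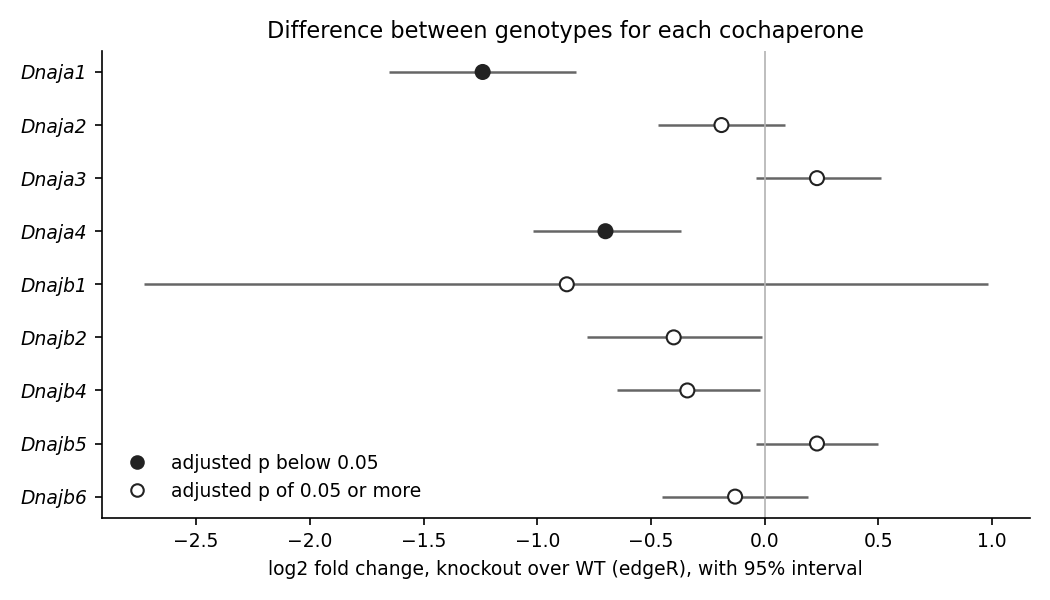
Log2 fold change, knockout over WT, with its 95% interval (horizontal axis) for each cochaperone; filled points are called by edgeR. The intervals of Dnaja1 (-1.65 to -0.83) and Dnaja4 (-1.02 to -0.37) stand to the left of 0, and that of Dnajb1 (-2.73 to 0.98) is the widest of the 9.

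Levels of different genes were compared per kilobase of the longest principal transcript, as RPKM from the TMM-normalised CPM. Mean WT levels were then highest for Dnaja2 (28.7 RPKM), followed by Dnajb6 (20.9), Dnajb5 (18.9), Dnajb4 (17.8), Dnaja1 (16.0), Dnaja3 (15.5), Dnajb2 (13.7), Dnajb1 (9.83) and Dnaja4 (8.48 RPKM). In the knockout Dnaja2 (25.2 RPKM) and Dnajb5 (22.1 RPKM) led, and Dnaja1 (6.74 RPKM) stood near Dnajb1 (5.26) and Dnaja4 (5.21 RPKM). In WT, Dnaja2 and Dnajb6 each stood apart from the next gene in both libraries, and from Dnajb5 (19.3 and 18.5 RPKM) down to Dnaja4 the libraries of each gene overlapped those of the next. The choice of transcript moved this order: with the shortest principal transcript Dnaja1 stood at 26.6 RPKM in WT and 11.2 RPKM in the knockout, and Dnajb4 led WT at 29.2 RPKM. The fold change of a single gene between genotypes does not depend on that choice, but sums and shares over several genes do. Summed over the 9 genes, the level was 162 and 138 RPKM in WT, against 132 and 120 RPKM in the knockout. Dnaja1 made up 11.3% and 9.94% of that sum in WT, against 5.89% and 4.74% in the knockout, and Dnajb5 made up 11.9% and 13.4% in WT, against 15.9% and 19.3% in the knockout. A share also rises where other members fall, and the level of Dnajb5 itself was not called (0.23 ± 0.12).

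The wider J-domain family was tested beside them. Of 40 other J-domain genes, 32 were tested and none was called by edgeR or by DESeq2. An unadjusted p below 0.05 was found for 4 of the 32 and for 14.0% of all tested genes. Their median log2 fold change was -0.05, with 18 negative and 14 positive, and their summed level was 617 and 624 CPM in WT, against 631 and 617 CPM in the knockout. Whether the 9 cochaperones differ from the rest of the family was not tested.

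The 13 HSP70 and HSP110 genes encode the HSP70 ATPases that J-domain proteins act on and their HSP110 relatives. Of these 13, 3 were called lower, where 0.558% of all tested genes were, and none higher. Their median was -0.40, with 11 negative. Hsph1, an HSP110 that exchanges nucleotide on HSP70, had 77.3 and 51.9 CPM in WT, against 19.7 and 20.1 CPM in the knockout (-1.70 ± 0.18, adjusted p = 0.000696). Its relative Hspa4l had 20.1 and 21.8 CPM in WT, against 8.65 and 7.16 CPM in the knockout (-1.39 ± 0.16, adjusted p = 0.000808). Hspa1l had 9.38 and 11.7 CPM in WT, against 4.94 and 5.97 CPM in the knockout (-0.97 ± 0.20, adjusted p = 0.0282), a call that was lost with WT replicate 2 left out (-0.80, adjusted p = 0.140), with knockout replicate 1 left out (-0.83, adjusted p = 0.170) and with DESeq2 (-0.96, adjusted p = 0.105). Both knockout libraries lay below both WT libraries for 10 of the 13 genes, the 3 called ones included. This held for 21.7% of all tested genes. Hspa8, the constitutive HSP70, had 784 and 868 CPM in WT, against 648 and 573 CPM in the knockout, a difference called by DESeq2 (adjusted p = 0.0278) and not by edgeR (-0.44 ± 0.14, adjusted p = 0.157).

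The inducible HSP70 genes Hspa1a and Hspa1b, chosen here after their values were seen, ordered the libraries much as Dnajb1 did within each group. Hspa1a had 80.1 and 33.9 CPM in WT, against 8.41 and 2.39 CPM in the knockout, and Hspa1b had 114 and 51.0 CPM in WT, against 7.18 and 2.39 CPM in the knockout. In both genes and in Dnajb1, replicate 1 was the higher library of its group, as it was for Dnaja1, Dnaja2, Dnaja3, Dnaja4 and Dnajb4. For Dnajb2 and Dnajb5 knockout replicate 2 was the higher one, and the WT libraries of Dnajb6 were level. WT replicate 1 exceeded WT replicate 2 by 1.24 in log2 CPM for Hspa1a and by 1.15 for Hspa1b, beside 1.13 for Dnajb1, 0.41 for Dnaja1, 0.07 for Dnaja4 and a median size of 0.19 over all tested genes. Knockout replicate 1 exceeded knockout replicate 2 by 1.76 for Hspa1a and by 1.53 for Hspa1b, beside 0.63 for Dnajb1 and 0.45 for Dnaja1. The median size there was 0.20 over all tested genes. Neither HSP70 gene was called by edgeR (adjusted p = 0.404 and 0.304), and DESeq2 called both (adjusted p = 0.0268 and 0.000479). The pair are near-identical copies, so the split of reads between them is uncertain.

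**Figure D4:**
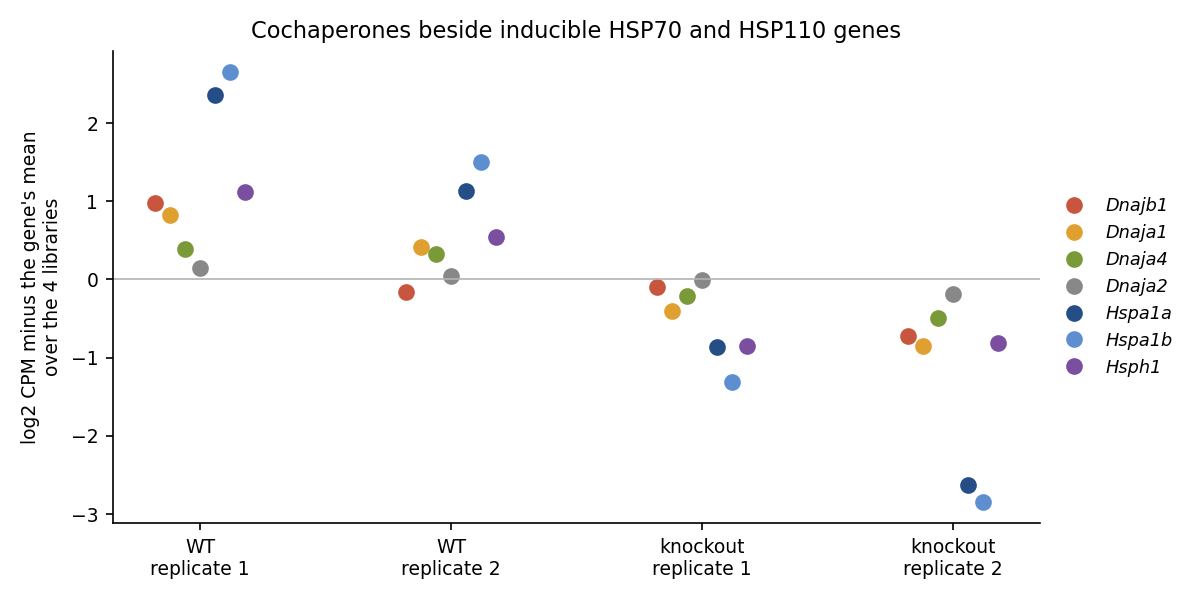
Log2 CPM of 4 cochaperones and 3 chaperone partners in each library, each gene centred on its own mean over the 4 libraries (vertical axis). Dnajb1, Hspa1a and Hspa1b are higher in WT replicate 1 than in WT replicate 2 by 1.13, 1.24 and 1.15. In the knockout, replicate 1 exceeds replicate 2 by 0.63, 1.76 and 1.53. Dnaja2 stays near 0 in every library.

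Of 19 cofactors that exchange nucleotide on HSP70 or hand clients on, 3 were called lower and none higher, with a median of -0.00. Of all tested genes, 0.558% were called lower. Bag3, which links HSP70 to autophagy of damaged Z-disc proteins, had 61.0 and 50.9 CPM in WT, against 31.9 and 31.7 CPM in the knockout (-0.81 ± 0.13, adjusted p = 0.00708). Chordc1, an HSP90 cochaperone, had a log2 fold change of -0.68 ± 0.12 (adjusted p = 0.0131), and Stip1, which bridges HSP70 and HSP90, of -0.59 ± 0.12 (adjusted p = 0.0284). The Stip1 call was lost without each of the 4 libraries in turn (-0.67 to -0.51, adjusted p from 0.0559 to 0.120). Bag3 was also the 1 gene called by edgeR among 11 partners of chaperone-assisted selective autophagy, a set that Dnajb6 works with, whose median was -0.36 with 10 negative. DESeq2 called 3 of the 11, adding Hspa8 and Sqstm1, an autophagy receptor, both lower. Over all genes DESeq2 gave 77 lower calls. Hspa8 is also counted above among the HSP70 and HSP110 genes. None of the 4 tested heat shock factors and regulators was called by edgeR or DESeq2 or had an unadjusted p below 0.05. Hsf1 stood at 16.4 and 14.3 CPM in WT, against 13.9 and 13.9 CPM in the knockout (-0.14 ± 0.15, adjusted p = 0.766).

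For Dnaja3, the partners of the mitochondrial matrix give the context. None of 12 was called by edgeR or by DESeq2, and the median was 0.08. An unadjusted p below 0.05 was found for 3 of them and for 14.0% of all tested genes. Hspe1, the small subunit of the mitochondrial chaperonin, had the smallest p, at 74.9 and 67.6 CPM in WT, against 53.8 and 52.5 CPM in the knockout (-0.42 ± 0.12, adjusted p = 0.117).

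**Figure D5:**
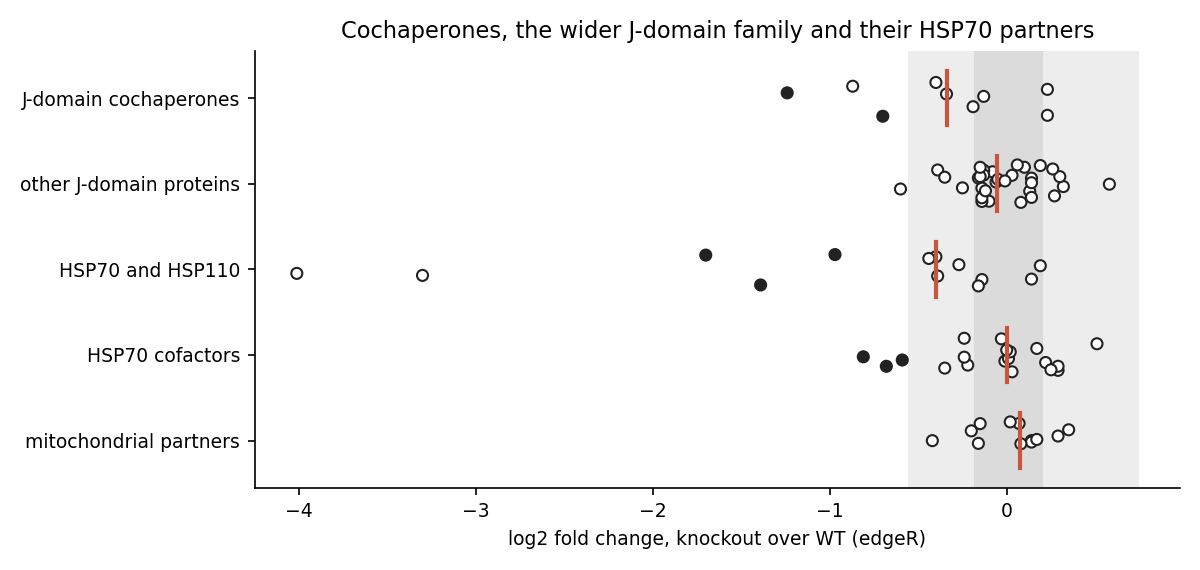
Log2 fold change, knockout over WT (horizontal axis), of every tested gene in 5 lists; filled points are called by edgeR, red bars are list medians, and the dark and light bands hold the middle 50% and 90% of all tested genes (-0.18 to 0.20 and -0.55 to 0.74). The median of the 9 cochaperones is -0.34, that of the other J-domain proteins -0.05 and that of the HSP70 and HSP110 genes -0.40.

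The genes whose pattern over the 4 libraries lay nearest to that of Dnaja1, the member with the smallest p, were taken from 6288 tested genes with a mean of at least 10 CPM, by the Euclidean distance between centred log2 CPM values. Hspb1, a small heat shock protein, came first at a distance of 0.200, with 83.5 and 72.0 CPM in WT, against 34.3 and 28.4 CPM in the knockout. The next were Cilp2, a cartilage-layer protein (0.267), Ccn2, a matricellular growth factor (0.397), P4ha1, a collagen prolyl hydroxylase (0.398), and Col8a1, a collagen chain (0.410). Tendon markers had a median log2 fold change of -0.51, negative for all 8, with none called by edgeR or DESeq2. Of the 8, 3 had an unadjusted p below 0.05 by edgeR, as did 14.0% of all tested genes. The part of tendon markers in this likeness was not tested. Among the cochaperones, Dnaja4 ranked 24 at a distance of 0.607 and Dnajb1 ranked 34 at 0.673. Dnajb4 ranked 212, Dnajb2 510, Dnaja2 881 and Dnajb6 1158, and Dnaja3 ranked 5011 and Dnajb5 5194. As Dnaja1 was picked by its p between genotypes, genes near it have a like fall by construction.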

How the data were processed

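The authors deposited unnormalised read counts per Ensembl gene ID, 1 column for each library. The tools are Trimmomatic, STAR and DESeq2 and the build is GRCm38 (mm10), per the submitters' processing notes. Tool versions, the annotation release and the treatment of multi-mapping reads: not given in the sources used here. Of 55573 gene IDs, 55480 (99.83%) matched GENCODE M21, which gave symbols, coordinates and lengths. Total counts were 10.79 M and 13.03 M in WT and 21.34 M and 11.21 M in the knockout. The chi-square per degree of freedom between libraries was 8.86 within WT and 13.8 within the knockout, above counting noise, so libraries were kept apart.

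Genes were filtered with filterByExpr in edgeR 4.0.16 (minimum count 10, minimum total 15) in R 4.3.3, scaled by TMM (factors 0.9797 to 1.048) and tested with the robust quasi-likelihood F test, genotype being the only term, with Benjamini-Hochberg adjustment over 13076 genes. SE and intervals come from the F statistic. Log2 CPM used a prior count of 2. The script was tested on simulated data. Alternatives were RLE and upper-quartile scaling, DESeq2 1.42.0, no filter, removal of mitochondrial genes and Rn7sk, each library left out, and the replicate number as a block.

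The members, gene lists, alternatives and rule for named genes were chosen with earlier results of these data known. The rule names the 9 members, Vdr and the 5 genes nearest to the leading member. From each list other than the marker lists it names up to 4 called genes (or the 1 with the smallest p). Hspa8, Hspa1a and Hspa1b were added after their values were seen. Sqstm1, single marker genes and genes that overlap a member were also named outside the rule. A gene that the rule names among the other J-domain genes is not reported here. Of 197 symbols in the lists, 196 matched. Among the marker lists, macrophage, endothelial, fibroblast, tendon, Schwann cell and satellite cell markers held no called gene by edgeR or DESeq2. Of their 10, 8, 8, 8, 8 and 5 tested genes, 2, 3, 3, 3, 1 and 2 had an unadjusted p below 0.05 by edgeR. Of all tested genes, 14.0% had such a p. With all libraries edgeR called 1 of 8 immediate-early genes higher, Zfp36 (1.21 ± 0.17, adjusted p = 0.00229), where 1.91% of all tested genes were. Of the 8, 6 had a positive and 2 a negative log2 fold change. Fos had 7.87 and 6.16 CPM in WT, against 59.9 and 14.5 CPM in the knockout. It was not called by edgeR (2.44 ± 1.05, adjusted p = 0.529) or DESeq2.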

Additional observations from a re-analysis of the deposited data

How the results depend on the processing

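Dnaja1 was called under all 10 alternatives, with log2 fold changes from -1.49 to -1.02. Of 90 recomputed values of the 9 members, 83 kept their direction and their side of the threshold, 4 lost a call (all Dnaja4), 2 gained a call (both Dnajb1) and 1 changed sign (Dnajb6 without knockout replicate 2; its values with a library left out ran from -0.34 to 0.03). Of 210 values of 21 other named genes, 191 kept both, 10 lost a call, 6 gained one and 3 changed sign, all of Smu1 (-0.00 with RLE scaling, -0.04 without WT replicate 2 and -0.06 without knockout replicate 1; its values with a library left out ran from -0.06 to 0.06). Col8a1 lost its call without WT replicate 1 (-0.67), without knockout replicate 2 (-0.72) and with DESeq2 (-0.86). Where a library is left out, the lone library of its group is assumed to vary like the other group. The cause of these changes was not tested. The count of members called lower was 1 with DESeq2 and ran from 1 to 2 with a library left out. The count of HSP70 and HSP110 genes called was 5 with DESeq2 and 5 with the replicate block, and that of other J-domain genes was 1 with no filter on low counts. No filter also gave 3 tendon markers called lower (Chodl, Thbs4 and Tnmd). Over all genes, no filter gave 190 lower and 530 higher calls, beside 73 and 250, and leaving out a library gave 42 (without knockout replicate 1) to 111 (without WT replicate 1) lower calls. DESeq2 gave 77 lower and 220 higher calls. With the replicate block Dnajb1 was called by edgeR (-0.85, adjusted p = 0.0319), so 3 members were called lower. So were Hspa1a (-3.45, adjusted p = 3.59e-05) and Hspa1b (-4.14, adjusted p = 1.42e-05). Over all genes the block gave 63 lower and 251 higher calls, and it leaves fewer degrees of freedom for the spread between libraries. The labels do not tie same-numbered libraries together, and their deviations from the group means correlated at 0.039 over 13076 genes, so the numbers were not taken to pair them. The low number of libraries limits the precision: the median SE of the members was 0.146 on the log2 scale, and the SE of Dnajb1 was 0.55, with an interval from -2.73 to 0.98.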
